A study of Mus musculus with 4 samples.

Results

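Cells make cholesterol from acetyl-CoA through mevalonate and squalene, and they export the surplus to lipoproteins. The levels of 33 genes of this balance were read in microglia, the resident macrophages of the brain, out of 56832 genes listed in each deposited file. The genes were taken by symbol from a list of known pathway genes, with no cut on their values, though earlier results of these libraries were known when the list was drawn up: 18 enzymes of the mevalonate and sterol pathway (the synthesis arm), 6 genes of SREBP control, 2 of uptake and esterification, and 7 of liver X receptor (LXR) signalling and efflux (the LXR and efflux arm). RNA came from 4 libraries of cultured microglia of C57BL/6 mice, replicates 1 to 4, grown in primary glial culture, detached with trypsin and sorted by flow cytometry. These libraries form 1 group with no treatment named, so no comparison between conditions could be made; the blood progenitors and co-cultures that the series was designed around are not analysed here. The sources used here give neither the animals' age nor the sort gates. Nor do they say whether the libraries came from separate cultures, so each SD and p-value below measures only the spread between libraries, which may be technical.

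As background, the transcription factors SREBP-1 and SREBP-2, products of Srebf1 and Srebf2, switch on synthesis genes when membranes are short of sterol. Scap escorts them to the Golgi for activation, and Insig1 and Insig2 hold that complex back when sterol is plentiful. Oxysterols, made from cholesterol, bind LXR, which switches on the exporters Abca1 and Abcg1. Microglia clear cell debris and myelin and so take in cholesterol from other cells, while astrocytes are known as the main makers of cholesterol in the adult brain.

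The libraries held 23212183 to 28469813 gene counts, and all 33 genes had at least 40 counts in every library and at least 1 CPM (counts scaled by the library's total). Levels of different genes are compared in TPM, in which counts are also divided by gene length. The 8 microglial and macrophage markers were all detected, with a median of 1846 TPM ± 63.4 (SD, n = 4 here and for every mean below). Of 10 astrocyte markers 9 reached 1 CPM in every library and none was at 0 counts in any, with a summed level of 300, 470, 506 and 412 CPM in replicates 1 to 4. Of 8 oligodendrocyte lineage markers 4 were detected (223 to 239 CPM summed, Mog at 0 counts), as were 4 of 6 endothelial, mural and fibroblast markers (66.0 to 103 CPM summed, with Cldn5 at 16, 0, 0 and 0 counts). The labels give the sex as female; Xist was at 253 to 341 CPM, but the Y-linked gene Ddx3y was also at 30.0 to 41.5 CPM, in all 4 libraries, so no library could be set aside on that ground.

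Promoter sequence is shown first, because the motif counts below refer to it. Windows of 250 bases upstream of the annotated start were taken for 27 of the 33 genes from the RefSeq table of build GRCm38.p6, an older build than the one the counts were made on; there was no entry for Fdps, Fdft1, Sqle, Stard4, Abcg1 and Apoc1. SREBPs bind a sterol regulatory element beside the general factors NF-Y and Sp1. The sequences below, 5′ to 3′, are those of the 2 synthesis genes with the highest level, the synthesis gene with the lowest level, and Srebf2. Capitals mark the NF-Y box CCAAT, or ATTGG where it lies on the other strand, and the shortened sterol element TCACNCCA.
Ebp, chrX:8193513-8193762, minus strand: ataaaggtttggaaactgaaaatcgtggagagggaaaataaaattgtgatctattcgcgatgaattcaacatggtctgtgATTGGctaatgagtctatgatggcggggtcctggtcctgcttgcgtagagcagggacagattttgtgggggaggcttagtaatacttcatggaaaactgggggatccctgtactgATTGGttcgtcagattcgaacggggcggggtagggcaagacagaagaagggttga
Hmgcs1, chr13:119690101-119690350, plus strand: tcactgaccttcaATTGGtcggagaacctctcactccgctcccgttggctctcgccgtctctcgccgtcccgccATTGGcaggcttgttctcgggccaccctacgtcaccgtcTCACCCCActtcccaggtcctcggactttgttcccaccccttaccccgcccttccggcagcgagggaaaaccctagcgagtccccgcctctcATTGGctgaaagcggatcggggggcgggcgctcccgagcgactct
Idi1, chr13:8885356-8885605, plus strand: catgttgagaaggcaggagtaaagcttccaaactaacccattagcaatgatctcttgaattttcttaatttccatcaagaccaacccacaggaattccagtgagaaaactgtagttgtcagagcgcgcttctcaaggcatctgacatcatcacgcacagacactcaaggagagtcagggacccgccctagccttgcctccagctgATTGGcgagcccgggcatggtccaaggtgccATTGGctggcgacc
Srebf2, chr15:82147019-82147268, plus strand: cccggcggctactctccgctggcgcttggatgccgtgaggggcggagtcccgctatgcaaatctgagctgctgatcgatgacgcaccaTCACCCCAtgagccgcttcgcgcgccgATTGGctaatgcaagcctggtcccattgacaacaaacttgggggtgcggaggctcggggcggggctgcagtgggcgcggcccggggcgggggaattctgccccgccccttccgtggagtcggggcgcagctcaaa

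CCAAT on either strand stood in the promoter windows of 14 of the 15 synthesis genes with an entry (Acat2 was the exception) and of 4 of 5 SREBP control genes, but of 1 of 5 LXR and efflux genes, Cyp27a1. It was held by 37.5% of all genes with an entry, and of the protein-coding genes detected at 1 CPM or more in all libraries 40.9%. The Sp1 box GGGCGG stood in 14 of 15 synthesis genes, 5 of 5 SREBP control genes and 2 of 5 LXR and efflux genes, against 35.4% of all genes and 65.4% of detected protein-coding genes. Ebp and Idi1, which lie at opposite ends of the synthesis genes in level, both held 2 NF-Y boxes and no sterol element of these letters. The sterol element TCACNCCAC was found in Hmgcs1 alone (1.23% of all genes, 1.24% of detected protein-coding genes), and its shortened form TCACNCCA in Hmgcs1, Msmo1 and Srebf2 (4.2% and 4.05%). All motifs were searched on both strands, a gene with several annotated starts counted if any of its windows held the motif, and every match of a full form is also a match of its shortened or loosened form. The shortened form, and the loosened LXR form below, were written with known sites of these genes in mind.

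LXR binds, with its partner RXR, a repeat of AGGTCA spaced by 4 bases. That repeat with all letters kept was found in 0 of the 27 genes. A loosened form, GGTNA followed by any 5 bases and GGTCA, was in 2 of 27, Abca1 and Srebf1, against 0.189% of all genes and 0.146% of detected protein-coding genes. Both promoters are shown because these genes are textbook LXR targets; capitals mark the loosened form, here on the opposite strand. The Srebf1 window is the third of its 3 annotated starts. A match of letters is a description and does not show binding.
Abca1, chr4:53159896-53160145, minus strand: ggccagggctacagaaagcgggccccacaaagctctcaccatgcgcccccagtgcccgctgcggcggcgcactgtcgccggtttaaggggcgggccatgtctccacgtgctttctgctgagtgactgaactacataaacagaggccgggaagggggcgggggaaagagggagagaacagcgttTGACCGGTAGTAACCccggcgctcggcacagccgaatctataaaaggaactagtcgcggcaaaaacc
Srebf1, chr11:60210472-60210721, minus strand: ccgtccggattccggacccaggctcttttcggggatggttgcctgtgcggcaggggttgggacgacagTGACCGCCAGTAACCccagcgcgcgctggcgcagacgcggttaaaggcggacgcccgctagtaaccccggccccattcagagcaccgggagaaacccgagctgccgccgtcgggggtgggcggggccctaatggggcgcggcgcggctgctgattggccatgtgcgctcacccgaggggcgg

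Genes of the LXR and efflux arm held the 2 highest levels of the 33, those of Abca1 and Ch25h, and also the lowest, that of Nr1h3. Abca1, which encodes the pump that loads cholesterol and phospholipid onto lipid-poor apolipoproteins, was at 660, 613, 553 and 610 TPM in replicates 1 to 4. It ranked 213 among the 10974 protein-coding genes at 1 CPM or more in all libraries. Abcg1, which moves sterol on to mature lipoprotein particles, was at 133, 125, 126 and 115 TPM. The ranges of the pumps did not overlap. With merged exons as gene length, the TPM ratio of Abca1 to Abcg1 was 4.89 ± 0.380, with 4.40 as its lowest value in any library. With the longest transcript as gene length, the mean ratio was 3.95.

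Next to Abca1 stood Ch25h, whose enzyme makes an oxysterol from cholesterol and which is known as a gene induced by interferon and by microbial signals. Its level was 688, 477, 601 and 535 TPM, a range that overlaps that of Abca1. Cyp27a1, a mitochondrial enzyme that makes another oxysterol, was at 70.8, 72.9, 75.9 and 81.0 TPM, so Ch25h stood 7.70 ± 1.49 times higher in TPM. In GENCODE M21 an antisense gene overlaps 11.5% of the exon bases of Ch25h, and the sources used here do not say whether counting used strand.

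The LXR genes themselves were far apart. Nr1h2, which encodes LXR beta, was at 106, 119, 126 and 114 TPM. Nr1h3, which encodes LXR alpha, was at 2.18, 2.58, 2.31 and 2.59 TPM, the lowest of all 33 genes. The TPM ratio of Nr1h2 to Nr1h3 lay between 44.1 and 54.5 in the libraries, with a mean of 48.4 ± 4.53. With the longest transcript as gene length, the mean ratio was 64.1. Nr1h3 rested on 43, 45, 40 and 55 counts, and in the library with the fewest the exact 95% Poisson interval ran from 1.23 to 2.35 CPM, around 1.72 CPM; such intervals cover counting error only. In GENCODE M21 another gene model covers 1.35% of the exon bases of Nr1h3, and none covers any of Nr1h2.

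Apoc1, an apolipoprotein gene that lies in a cluster with Apoe, was low beside its neighbour. It was at 20.0, 23.1, 26.6 and 26.5 TPM on 117 to 167 counts per library. Apoe, the main lipid carrier of the brain and the most abundant transcript here, was at 47990, 51140, 49531 and 51708 TPM. The ratio of Apoe to Apoc1 in TPM was 2106 ± 246, and the other apolipoprotein genes of that cluster that were listed stood lower still, Apoc2 at 0 counts in every library and Apoc4 at 0, 3, 1 and 6 counts.

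**Figure D1:**
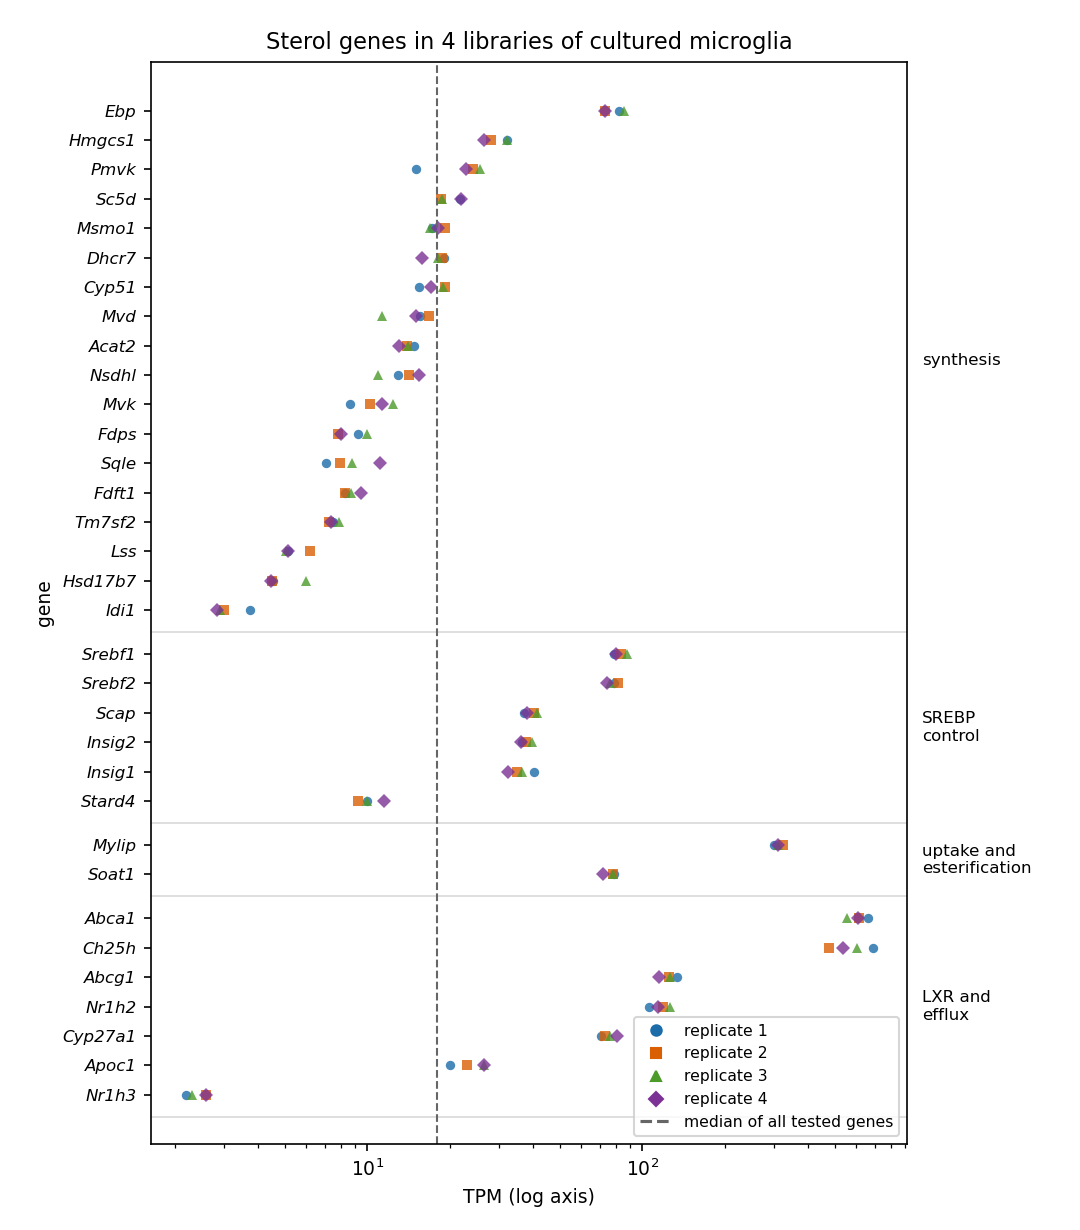
Level of each of the 33 sterol genes in TPM on a log axis, with 1 point per library (circle, square, triangle and diamond for replicates 1 to 4) and genes sorted by mean within each group. The dashed line is the median of all tested genes, 17.9 TPM; most synthesis genes lie to its left, while Abca1 and Ch25h lie at the right edge and Nr1h3 at the left edge.

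Of the 2 genes of uptake and esterification, Mylip was the higher. It encodes a ubiquitin ligase, itself an LXR target, that marks lipoprotein receptors for breakdown. Its level was 302, 323, 310 and 310 TPM, the third highest of the 33 and the steadiest between libraries (coefficient of variation 2.67%). Soat1, which esterifies cholesterol for storage in droplets, was at 78.9, 78.3, 78.1 and 71.8 TPM. Soat2, the esterifying enzyme known from gut and liver, was at 5.41 ± 0.992 TPM.

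By median level the SREBP control genes lay between the arms, but gene by gene they overlapped both. Stard4 was below the synthesis median, and Srebf1 and Srebf2 were above Apoc1 and Nr1h3. Srebf1 was at 79.1, 83.6, 87.6 and 80.3 TPM, and Srebf2 at 78.5, 81.2, 76.2 and 74.2 TPM. Their ranges overlapped and their order turned with the length used: the TPM ratio of Srebf2 to Srebf1 was 0.940 ± 0.0549 by merged exons and 1.01 by the longest transcript, so these genes cannot be ranked against each other. Insig1 was at 40.4, 35, 36.5 and 32.5 TPM and Insig2 at 36.6, 37.6, 39.8 and 36.1 TPM, with Insig2 higher in 3 of 4 libraries and a ratio of 1.05 ± 0.0950. Scap was at 39.3 ± 1.99 TPM. Stard4, a sterol carrier that SREBP-2 is known to induce, was the lowest of the group at 10.2 ± 0.960 TPM.

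Among the synthesis genes most were below the middle of the transcriptome: 11 of 18 were under the median of all tested genes in every library, 3 were above it in every library, and 4 changed sides. The first steps lead to mevalonate and squalene. Acat2, which joins acetyl-CoA units in the cytosol, was at 13.9 ± 0.716 TPM, and Hmgcs1, the synthase that follows, was the highest of this stretch at 32.2, 28.1, 32.1 and 26.6 TPM. The kinases Mvk (10.6 ± 1.61 TPM) and Pmvk (22.0 ± 4.78 TPM) and the decarboxylase Mvd (14.6 ± 2.32 TPM) followed. Idi1, which interconverts the isoprene units, was the lowest synthesis gene, at 3.74, 3.0, 2.91 and 2.83 TPM on 70 to 103 counts, and the range of no other synthesis gene reached it. Fdps, which builds farnesyl diphosphate, and Fdft1, the squalene synthase, were level at 8.74 ± 1.04 and 8.70 ± 0.588 TPM.

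Several of these values carry a counting limit. Of the 75-base words in the longest transcript, 29.1% of those of Idi1 and 40.7% of those of Acat2 also occur in transcripts of other genes, Gm13502 among them for Idi1, and Acat3 and Tcp1 for Acat2. Fdft1 shares 25.4%, with Ctsb, a protease gene that overlaps it on the opposite strand, and with Gm6781; the gene model Gm43738 covers 26.7% of the exon bases of Fdps. Hmgcs1 shares 12.2% of its words, with Gm48342, and Vps51 covers 12.1% of the exon bases of Tm7sf2, an enzyme gene of the later steps. Of the SREBP control genes, Scap has 13.2% of its exon bases covered by another gene model. How reads from such stretches were counted is not known here, so these levels are uncertain. With only the 25 members that share under 10% of such words and have under 10% of exon bases overlapped, an alternative added after the data were seen, the arms stood 2.50 apart on the log2(TPM + 1) scale in place of 3.02. This filter also left out Ch25h, which lowers the median of the LXR and efflux arm. The change is therefore not that of the uncertain synthesis levels alone.

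From squalene on, levels were uneven as well. Sqle, which oxidises squalene, was at 7.05, 7.95, 8.76 and 11.1 TPM, and Lss, which closes the ring system, at 5.12, 6.20, 5.04 and 5.12 TPM. The demethylation enzymes that trim the sterol core were at 17.6 ± 1.73 TPM for Cyp51, 17.8 ± 0.981 for Msmo1, 13.4 ± 1.92 for Nsdhl and 4.85 ± 0.737 for Hsd17b7, with the reductase gene Tm7sf2 at 7.5 ± 0.284. In the closing steps the isomerase gene Ebp stood apart at 81.8, 73.0, 85.5 and 72.8 TPM, above every other synthesis gene in every library. The desaturase Sc5d (20.2 ± 1.84 TPM) and the reductase Dhcr7 (17.8 ± 1.43 TPM) were near the transcriptome median. Ebp was 25.3 ± 3.16 times Idi1 in TPM, the widest gap within the arm.

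In the order of all 33 genes by mean TPM, the ranges over libraries overlapped for 23 of the 32 neighbouring pairs, so most neighbours cannot be ranked. The 9 gaps without overlap included those below Ch25h and below Mylip at the top, and those above and below Idi1 at the bottom.

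The synthesis arm was then set beside the LXR and efflux arm within each library. The synthesis median was 13.9, 14.0, 11.9 and 14.0 TPM in replicates 1 to 4 and the LXR and efflux median 106, 119, 126 and 114 TPM. In replicates 1, 2 and 4 the middle gene of the LXR and efflux arm was Nr1h2, so this median is its level there. Nr1h2 encodes a receptor and not an exporter. In replicate 3 Nr1h2 and the exporter gene Abcg1 both stood at 126 TPM, and Abcg1, lower by a small margin, was the middle gene. The groups of medians did not overlap, with all tested genes between them at 17.9 ± 0.184 TPM and SREBP control at 38.9 ± 1.46 TPM. The synthesis minus efflux difference of medians was -2.86, -2.99, -3.30 and -2.94 on the log2(TPM + 1) scale, a mean of -3.02 ± 0.194. Because the list was drawn up with earlier results known, this difference is given as a description, with no test. Summed over genes, the LXR and efflux arm reached 1680, 1432, 1511 and 1484 TPM and the synthesis arm 300, 301, 314 and 298 TPM (a ratio of 5.04 ± 0.389). That ratio rested on Abca1 and Ch25h: it was 3.03 ± 0.286 without Abca1, 3.14 ± 0.174 without Ch25h and 1.13 ± 0.0142 without both, when the other 5 genes summed to 343 ± 10.3 TPM. Without both, an alternative added after the data were seen, the difference of medians was -2.40 in place of -3.02. With an efflux arm of Abca1, Abcg1 and Apoc1 alone, the difference of medians was -3.12 ± 0.15.

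Gene by gene, an LXR and efflux gene was above a synthesis gene in all 4 libraries in 103 of 126 pairs and below it in all 4 in 20. The pairs that ran the other way came mostly from Nr1h3, which was below all 18 synthesis genes. Abca1, Abcg1, Nr1h2 and Ch25h were each above all 18, Cyp27a1 was above 17, with a range that overlapped Ebp, and Apoc1 was above 14 and below 2. The regulators were set beside the synthesis genes in the same way: Srebf1 and Srebf2 were each above 17 of 18 synthesis genes, and Ebp was the gene whose range they met. Transcript level does not show how much SREBP is cleaved and active, which was not measured.

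**Figure D2:**
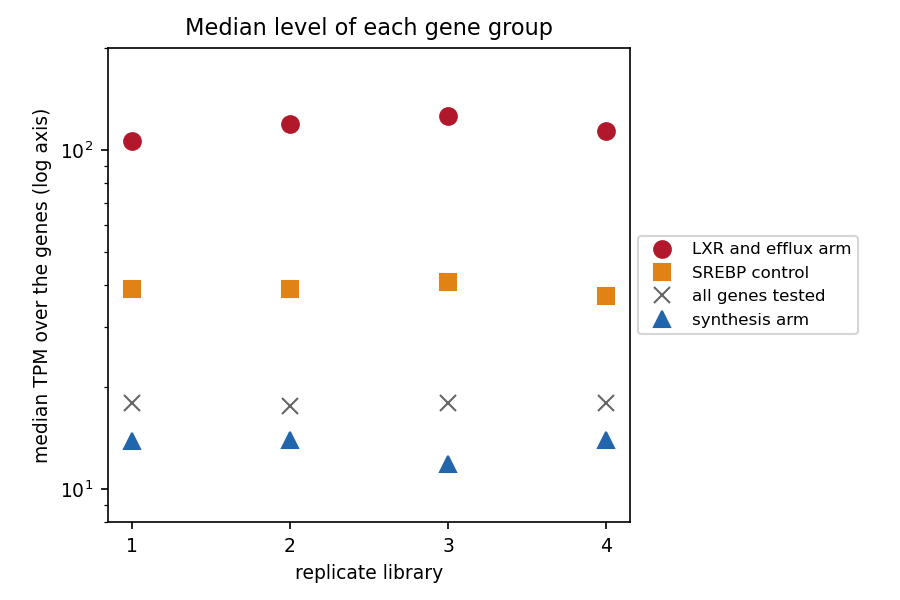
Median TPM over the genes of each group, on a log axis, in each of the 4 libraries; circles are the LXR and efflux arm, squares SREBP control, crosses all tested genes and triangles the synthesis arm. The order of the groups is the same in each library, with LXR and efflux medians of 106 to 126 TPM and synthesis medians of 11.9 to 14.0 TPM.

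The spread of the 33 genes between libraries was close to that of all tested genes. The test asked whether a gene differed between libraries by more than genes of like abundance (edgeR deviance test, Benjamini-Hochberg adjusted p under 0.05), and 0 of 33 members passed, where 1.11% of the 12879 genes tested did. At an unadjusted p under 0.05 there were 2 members, Ch25h and Pmvk, where 6.79% of all tested genes fell under it, and DESeq2 marked 0 members as dispersion outliers, where 0.501% of all genes in its fit were marked. These shares are near the background and are no result about the members. The median coefficient of variation was 8.39% over the members, 10.1% in the synthesis arm, 4.85% in SREBP control and 7.17% in the LXR and efflux arm, beside 8.86% over all tested genes.

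The deviations of the arms from library to library were small. The median deviation of the synthesis arm from the gene means was -0.02, -0.04, 0.01 and -0.02 on the log2 CPM scale in replicates 1 to 4, and that of the LXR and efflux arm -0.08, 0.02, 0.00 and 0.02. Of the 18 synthesis genes 8 were lowest in replicate 1 and 7 highest in replicate 3, where 35.3% and 30.2% of all tested genes were. Genes of 1 arm also differed among themselves: in replicate 1 Pmvk and Sqle were lowest while Dhcr7, Idi1 and Acat2 were highest.

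**Figure D3:**
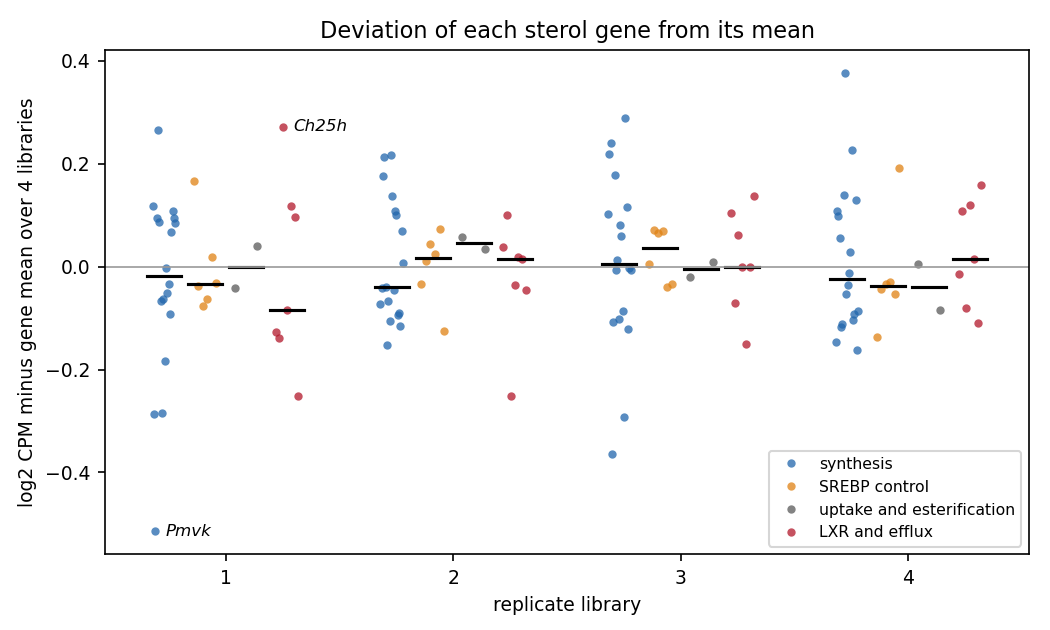
Log2 CPM of each sterol gene minus its mean over the 4 libraries, by library, with 1 point per gene, colours for the 4 gene groups and black bars for group medians. The points scatter on both sides of 0 in every library; Pmvk and Ch25h in replicate 1 are labelled.

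Ch25h came nearest to the threshold. Its level was 278, 196, 247 and 221 CPM in replicates 1 to 4, highest in replicate 1 and lowest in replicate 2 (edgeR unadjusted p = 0.001, adjusted p = 0.079, and 0.078 to 0.75 over 8 alternatives). The inflammatory genes Tnf, at 152, 53.5, 83.3 and 69.8 CPM, and Ccl2, at 53.6, 10.2, 20.5 and 15.6 CPM, had the same order of libraries. Of the 11 listed genes of rapid response to stimulation or dissociation, 10 were highest in replicate 1, where 24.0% of all tested genes were. The exception, Atf3, was highest in replicate 3. Only 6 of the 11 were lowest in replicate 2, as Ch25h was, and 5 were lowest in replicate 4. Summed, the 11 genes were at 1752, 945, 1206 and 940 CPM. Their part in the spread of Ch25h was not tested.

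Pmvk was at 7.48, 12.3, 13.1 and 11.7 CPM, low in replicate 1 and close together in the other libraries (edgeR unadjusted p = 0.044, adjusted p = 0.69). The 9 tested astrocyte markers were likewise all lowest in replicate 1, where 35.3% of all tested genes were. Their median deviation there was -0.48 on the log2 CPM scale. This was not particular to astrocyte markers. Of the 4 tested endothelial, mural and fibroblast markers 3 were lowest in replicate 1 (median deviation -0.27), as were 2 of the 4 tested oligodendrocyte lineage markers (-0.13). The summed synthesis arm was at 324, 331, 341 and 328 CPM, a far narrower range than the 300 to 506 CPM of the astrocyte list. In sorted but bulk material, fewer cells of a type and less RNA per cell cannot be told apart, and the part of astrocyte RNA in any synthesis gene was not tested.

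**Figure D4:**
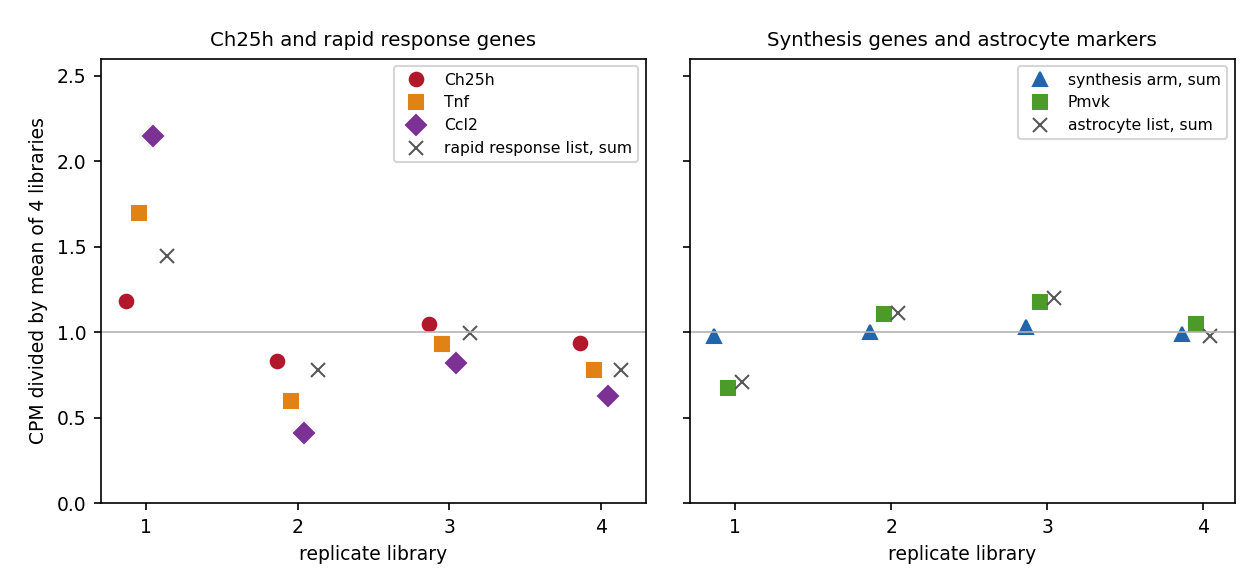
CPM of each gene or summed list divided by its mean over the 4 libraries. On the left Ch25h, Tnf, Ccl2 and the summed rapid response list are all highest in replicate 1; on the right Pmvk and the summed astrocyte list are lowest in replicate 1, while the summed synthesis arm stays between 324 and 341 CPM.

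The wider pathway was described from a list of 55 other genes, of which 44 reached 1 CPM in every library. Of the 47 tested, 0 passed the spread test in edgeR and 0 had an unadjusted p under 0.05, beside 1.11% and 6.79% of all tested genes. The highest were Apoe, then Lrp1, a large endocytic receptor that takes up Apoe-bound lipid (824 ± 69.1 TPM), Npc2 and Lipa (613 ± 30.1 and 598 ± 21.8 TPM), a lysosomal cholesterol carrier and the lysosomal enzyme that frees cholesterol from its esters, and Tspo, a mitochondrial protein that binds cholesterol (469 ± 39.4 TPM). The uptake receptor genes Vldlr (11 to 20 counts per library) and Lrp8 (6.72 ± 0.828 TPM) were low beside Lrp1. Of 14 genes of uptake, lysosomal release and transfer, 10 were above the median of all tested genes in every library.

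The machinery around SREBP was present. All 10 listed genes of SREBP processing and of sterol-regulated protein breakdown were detected, with a median of 39.7 ± 1.54 TPM. The proteases that cut SREBP were at 47.4 ± 2.21 TPM for Mbtps1 and 12.6 ± 0.568 TPM for Mbtps2. Genes of the neighbouring isoprenoid branch, had a median of 32.6 ± 1.28 TPM, above the 13.4 ± 1.05 TPM of the synthesis arm. Of the 10 listed isoprenoid genes, 6 were above the median of all tested genes in every library and 3 below it. Fnta, a subunit of the enzymes that prenylate proteins, was at 94.7 ± 2.56 TPM, and Fntb, another such subunit, at 7.27 ± 0.670 TPM.

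Of 18 listed LXR partners, targets and oxysterol enzymes, 10 were detected. The partners Rxra and Rxrb were at 104 ± 5.41 and 82.2 ± 6.63 TPM, while Rxrg had 10, 0, 0 and 0 counts. The known LXR targets Lpcat3 (73.2 ± 4.44 TPM) and Pltp (71.3 ± 6.17 TPM) were near Cyp27a1 in level. Abcg5 and Abcg8, the sterol exporters of gut and liver, and Apoc2 had no count in any library; in the shallowest library the floor of 3 counts stood at 0.129 CPM, and the exact 95% Poisson interval for 0 counts reached 0.159 CPM. Of the other oxysterol enzymes, Cyp46a1, known from neurons, was at 2.98 ± 1.03 TPM, and Cyp7b1 had 1, 2, 3 and 16 counts.

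**Figure D5:**
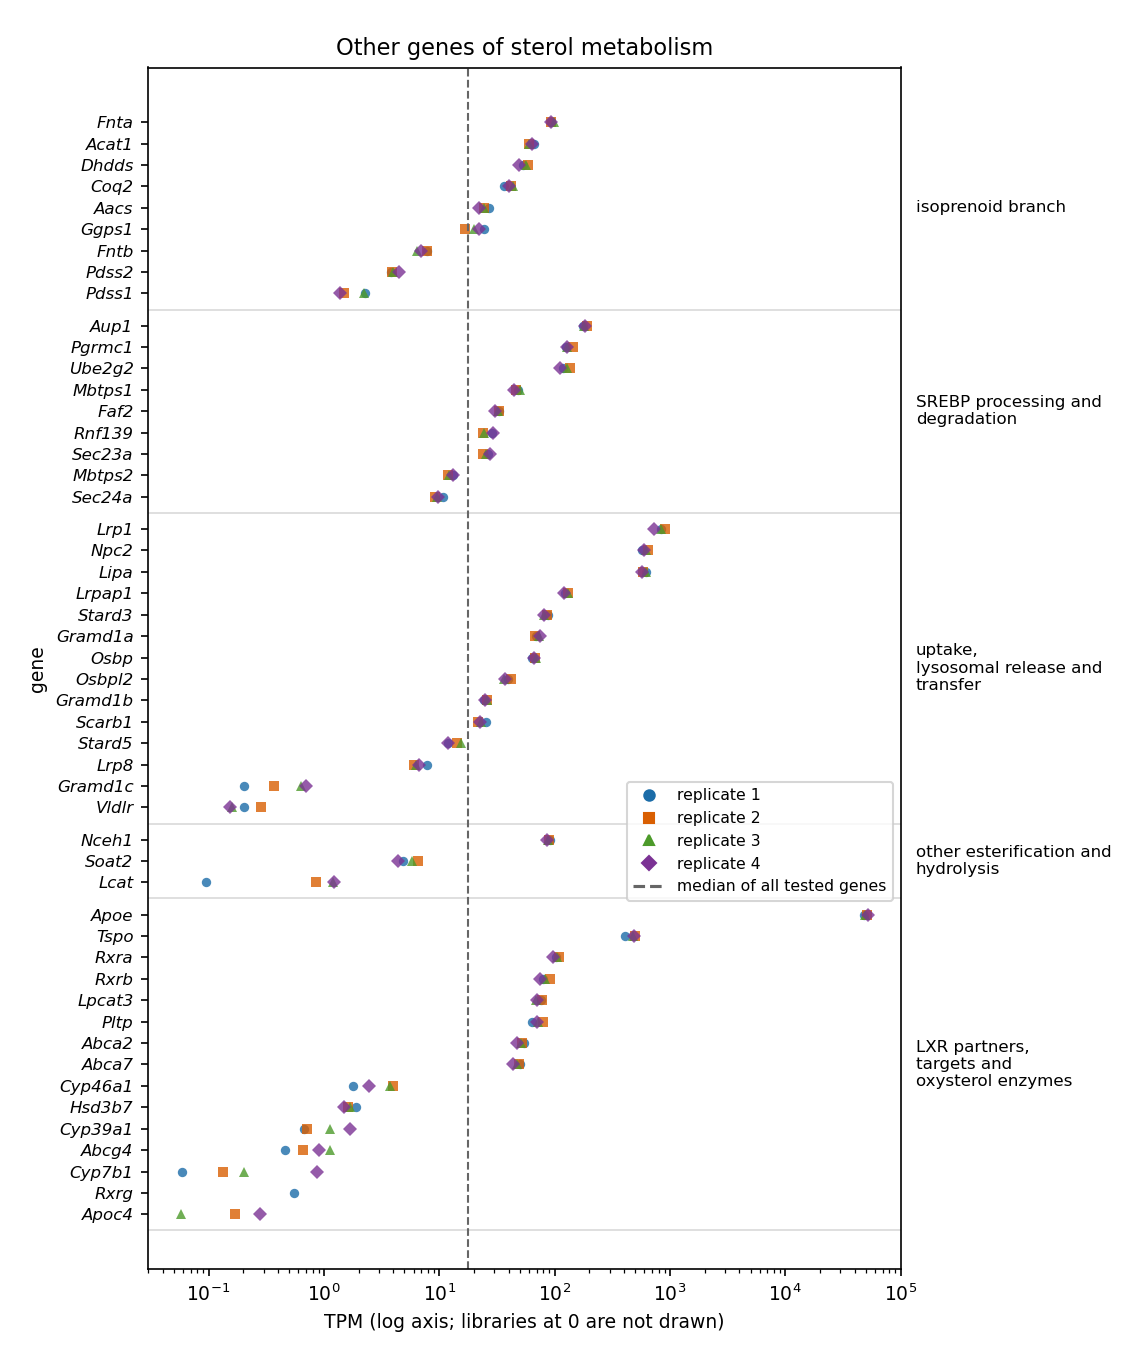
Level of other sterol genes in TPM on a log axis, with 1 point per library as for the 33 members and genes sorted by mean within each list; the dashed line is the median of all tested genes, 17.9 TPM. Apoe lies at the far right at 50092 TPM, and genes with 0 counts in all libraries (Abcg5, Abcg8 and Apoc2) and some genes not reported here are left out.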

How the data were processed

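RNA sequencing of 4 libraries of cultured microglia was used. The authors deposited 1 file of raw counts per library, whole numbers by gene symbol. The submitters' processing notes name the build mm39, HTSeq 0.11.2, STAR 2.7.10a and SAMtools 1.16.1; annotation release, strand setting and overlap mode: not given in the sources used here. Summary lines, 5 per file (11.8% ± 0.159 of reads, SD, n = 4) were left out. TPM was computed from merged exon lengths in GENCODE M21 (GRCm38), matched for 89.1% of symbols and 98.8% of counts. The spread test used edgeR 4.0.16 in R 4.3.3: 1 mean per gene, TMM, filterByExpr, trended dispersion, deviance against a chi-square with 3 degrees of freedom, Benjamini-Hochberg over all genes. On counts simulated from the fitted dispersion, it recovered 76 of 100 genes changed 2-fold in 1 library and 98 of 100 changed 4-fold. It also called 4 unchanged genes. Changes under 2-fold, or in genes with few counts, were not simulated. DESeq2 1.42.0 was an alternative. Log2 CPM used a prior count of 2.

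The members, lists and tests were chosen with earlier results of these data known. Named in full by rule were members past the spread test (none), the 4 highest and 4 lowest by TPM, and 4 paralog pairs; of other pathway genes, any past the test, the 5 highest, the 3 lowest and those at 0 counts. Other genes given with values, Ch25h and Pmvk as nearest to the threshold among them, were chosen after their values were seen. Some genes of the other pathway lists count in the list totals but are not reported here by name.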

Additional observations from a re-analysis of the deposited data

Results flagged for a closer look

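Of 36 quantities checked (33 members and 3 arm summaries), 4 had 1 library far from the others by Dixon's criterion. Chance alone flags about 1 in 20 groups. The share flagged among all tested genes was not computed, so this count is no result about the members. Lss was at 19.8 CPM in replicate 2 and at 16.1 to 16.4 CPM in the others. Hsd17b7 was at 9.0 CPM in replicate 3 and at 6.70 to 6.78 CPM in the others, on 159 to 209 counts. Soat1 was at 209 CPM in replicate 4 and at 225 to 227 CPM in the others. The synthesis median in replicate 3 was 3.69 on the log2(TPM + 1) scale, against 3.89 to 3.91 in the others. None of these 3 genes passed the spread test (edgeR adjusted p = 1.0 for each).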

How the results depend on the processing

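The synthesis minus efflux difference, -3.02 on the log2(TPM + 1) scale, was negative under all 16 alternatives run. It was -2.43 with a pseudocount of 10, -3.23 with the longest transcript as length, -2.63 with means over members, -2.50 with the 25 members of low overlap and sharing and -2.40 without Abca1 and Ch25h, both added after seeing the data; leaving out 1 replicate gave -3.08 to -2.93. The pairs with the efflux gene higher numbered 103 to 104 without 1 replicate and 90 in CPM. The count of members past the spread test was 0 under all 9 alternatives. Over all genes that count was 143, but 532 with a common dispersion, 47 without replicate 1 and 52 without replicate 3. With library totals alone, the deviation of the synthesis arm was -0.04 in replicate 1 and 0.03 in replicate 3, in place of -0.02 and 0.01. Idi1, Nr1h3 and Apoc1 rest on 40 to 167 counts, so differences between libraries within their counting error were not detectable. No paired analysis was possible because there is only 1 group.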
